A study of Mus musculus with 24 samples.

Results

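In hippocampal CA1 after status epilepticus (SE), 10 genes of the glucocorticoid system were followed. They were 10 of the 18647 genes in the deposited count table, taken by symbol, and all 10 passed the filter on low counts. Reads were counted without regard to strand, and exons of 5 of them (Fkbp5, Sgk1, Nr3c1, Nr3c2 and Errfi1) overlap exons annotated on the opposite strand, whose reads cannot be told apart from theirs. Nr3c1 encodes the glucocorticoid receptor, Nr3c2 the mineralocorticoid receptor, and Hsd11b1 an enzyme that regenerates active glucocorticoid inside cells. The other 7 genes, Fkbp5, Tsc22d3, Zbtb16, Sgk1, Errfi1, Ddit4 and Pdk4, are known to be induced by glucocorticoids in many tissues, and most of them respond to other stimuli as well.

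Glucocorticoids are steroid hormones that the adrenal cortex releases during stress and, under the control of the clock, once a day. They bind both receptors, which then enter the nucleus and act on genes at or near glucocorticoid response elements. CA1 pyramidal cells are known for carrying both receptors, the mineralocorticoid receptor having the higher affinity for the hormone.

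The samples came from C57Bl/6N mice aged at least 60 days, whose sex the labels do not give. All animals were pretreated with scopolamine methyl nitrate (1 mg/kg), a blocker of muscarinic receptors outside the brain. SE animals then received 335 mg/kg pilocarpine, a muscarinic agonist, only those that developed SE being kept, and controls (Ctr) received saline. Diazepam (4 mg/kg), known to reduce seizure activity, was given 40 min after SE onset, and controls were handled in the same way. CA1 was microdissected at 5 times after SE (6 and 12 h, then 24, 36 and 72 h) and at 12, 36 and 72 h in controls, with 3 libraries in each of the 8 groups. There was no control at 6 or 24 h, so SE 6 h and SE 24 h were compared with the average of all 3 control groups and share those controls. The labels do not say whether the libraries of a group came from separate animals, so the p-values measure the spread between these libraries. The numbers that the labels give the samples fall into 3 ranges, and Ctr 36 h, Ctr 72 h and SE 24 h each lie within 1 range. No range holds both Ctr 72 h and SE 72 h or both Ctr 72 h and Ctr 36 h libraries, and the range of SE 24 h holds no control. Within those comparisons, SE 24 h against controls included, range and group cannot be told apart.

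Library totals ranged from 2663936 to 30133731 counts (median 13521590), and outside Ctr 72 h from 9328095. All 4 CA1 pyramidal markers (Wfs1, Fibcd1, Pou3f1 and Mpped1) were detected in every group, their sum being 704 to 1410 CPM (counts scaled to library size) in controls, against 3.75 to 104 CPM for 4 dentate granule cell markers. The CA1 markers were 664 to 827 CPM at SE 36 h, where 3 of 4 were called lower (median log2FC -1.29), and 293 to 644 CPM at SE 72 h, where 2 were. The dentate markers were 17.5 to 234 CPM at SE 72 h, where 3 of 4 were called higher. Markers of other tissue moved between libraries. The sum of 8 sensory ganglion genes was over 100 CPM in 6 libraries (SE 6 h replicate 3, SE 12 h replicate 1, SE 36 h replicate 3, Ctr 72 h replicate 2 and SE 72 h replicates 1 and 2; 305 to 1620 CPM), and at most 64.5 CPM in the other 18. For the glucocorticoid genes followed here, calls that changed without these libraries are given beside the results. Results for the other genes and lists named below were not examined without them. The summed level of 8 microglial markers, 306 to 401 CPM in controls, was 210 to 235 CPM at SE 6 h and 1250 to 1810 CPM at SE 72 h. That of 8 neuronal markers was 10700 to 17500 CPM in controls and 7330 to 8840 CPM from SE 24 h on. Their part in the results below was not tested, and in bulk tissue fewer cells of a type cannot be told apart from less RNA per cell.

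A gene was called when its adjusted p (edgeR's quasi-likelihood test, Benjamini-Hochberg over 18153 genes) was at most 0.05 and its log2 fold change (log2FC) at least 0.66 in size. At SE 6 h, 5 of the 10 genes were called, 4 higher (Fkbp5, Sgk1, Zbtb16, Errfi1) and 1 lower (Nr3c2), where 22% of all genes were called. At 12 h, 2 were higher (Fkbp5, Errfi1) and 1 lower (Ddit4), beside 25.2% of all genes. At SE 24 h, 3 were higher (Fkbp5, Sgk1, Errfi1) and 3 lower (Tsc22d3, Nr3c2, Pdk4), beside 24.1%. At 36 h, none was higher and 3 were lower (Tsc22d3, Nr3c2, Zbtb16), beside 21.6%. At 72 h only Fkbp5 was called, as higher, beside 19.4%. The median log2FC of the 10 genes was 0.32, 0.06, 0.19, -0.40 and 0.02 in time order, against 0.06, 0.01, 0.04, 0.00 and 0.10 over all genes tested. At 12 and 36 h the 3 of 10 called stood close to the share of all genes.

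**Figure D1:**
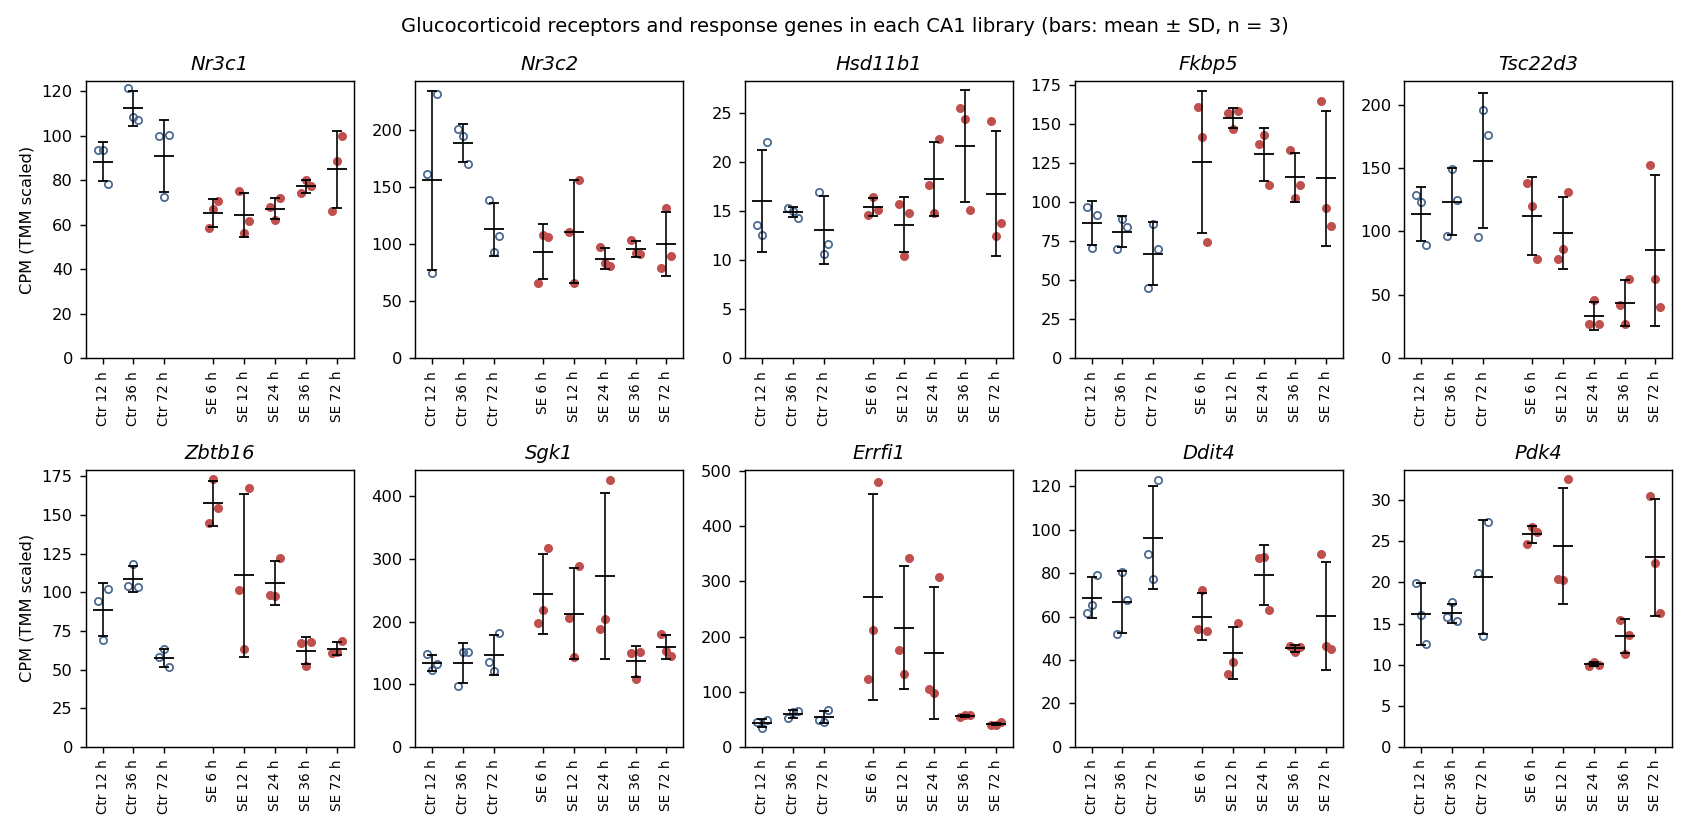
Level of each gene in every library, in CPM on a linear axis from 0, for the 3 control groups (open circles) and the 5 times after SE (filled circles); black bars are the mean and SD of 3 libraries. Errfi1 stands far above controls at 6 to 24 h and back among them at 36 and 72 h, while Tsc22d3 and Pdk4 are lowest at 24 h.

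**Figure D2:**
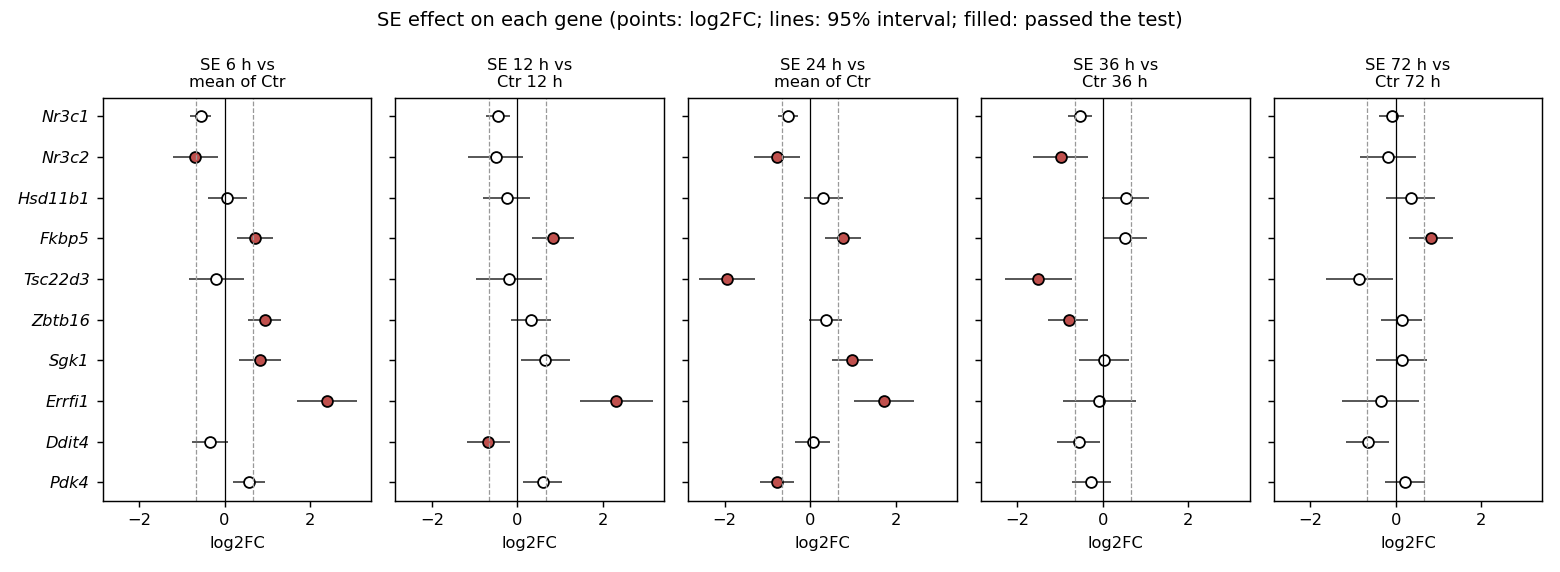
Log2FC of SE against control for the 10 genes at 5 times, with 95% intervals from the fit; filled points passed the test and dashed lines mark 0.66 in each direction. Fkbp5 lies to the right of 0 in all 5 panels and both receptors to the left, with the interval of Nr3c1 clear of 0 at 6 to 36 h.

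Nr3c2 was called lower at 6, 24 and 36 h after SE, and Nr3c1 was lower from 6 to 36 h at an adjusted p of at most 0.05 but by less than the fold threshold. Nr3c1 (ENSMUSG00000024431, GRCm39 chromosome 18, 39543598 to 39652474, minus strand) stood at 93.5, 93.5 and 78.3 CPM in Ctr 12 h, 121, 108 and 107 CPM in Ctr 36 h and 100, 72.3 and 101 CPM in Ctr 72 h. It was 58.6, 66.9 and 70.5 CPM at SE 6 h, 75.3, 56.4 and 61.6 CPM at SE 12 h, 67.9, 62.1 and 71.8 CPM at SE 24 h, and 74.4, 80.2 and 77.5 CPM at SE 36 h. At 12 h and at 36 h every SE library was below every control of the same time, as held in either direction for 47.7% and 51.9% of all genes. By 72 h, at 66.2, 88.8 and 100 CPM, the groups overlapped. In time order from 6 to 36 h, the log2FC was -0.56 ± 0.11 (standard error of the fit), -0.45 ± 0.13, -0.52 ± 0.11 and -0.54 ± 0.13, with adjusted p-values of 0.000601, 0.0115, 0.00106 and 0.00409. None of these reached 0.66 in size, so none counted as a call. At 72 h it was -0.09 (95% interval -0.36 to 0.17). The difference between the SE effects at 72 and 36 h was 0.45, with an adjusted p of 0.169, so a recovery by 72 h was not shown by the test. Without the 6 libraries with ganglion RNA, the value at 6 h was -0.68 and passed (adjusted p = 7.83e-05). In the order of group means, Ctr 36 h (112 CPM) lay above Ctr 72 h (91.0 CPM) with no overlap of libraries, and SE 36 h (77.4 CPM) above SE 24 h (67.3 CPM), while SE 24 h, SE 6 h and SE 12 h overlapped. Such gaps held in either direction for 23.8% of all genes between these controls and for 19% between SE 36 h and SE 24 h.

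Nr3c2 (ENSMUSG00000031618, chromosome 8, 77625576 to 77971863, plus strand) varied more. Its controls were 162, 74.9 and 232 CPM at 12 h, 201, 195 and 170 CPM at 36 h and 139, 93.5 and 107 CPM at 72 h. The SE libraries lay at 65.7, 108 and 106 CPM at 6 h, 111, 65.9 and 156 CPM at 12 h, 97.7, 83.4 and 81.0 CPM at 24 h, 104, 92.0 and 91.0 CPM at 36 h and 79.2, 132 and 89.6 CPM at 72 h. Ctr 12 h replicate 2 was lower than every other control, and the groups were apart at 36 h only (as for 51.9% of all genes). Per length, Nr3c2 exceeded Nr3c1 in controls (mean 17.8 against 12.3 RPKM, CPM per kilobase of exon) and less so after SE (11.4 against 9.12 RPKM). The log2FC was -0.98 ± 0.31 at 36 h (1.98-fold lower, adjusted p = 0.0227), -0.77 ± 0.26 at 24 h (0.0271) and -0.68 ± 0.26 at 6 h (0.0498). At 12 h it was -0.50 (0.221) and at 72 h -0.18 (0.728). The calls were fragile: the one at 6 h held in 4 of 14 other settings and in 2 of 12 omissions of 1 library, the one at 36 h in 3 of 7 omissions and not without the ganglion libraries (-0.94, adjusted p = 0.0565), and the one at 24 h was lost without SE 24 h replicate 2 or 3 or Ctr 12 h replicate 3 (-0.74, -0.72 and -0.64), with Ctr 72 h alone as control (-0.37, adjusted p = 0.398) and with the label range as a factor (-0.63, 0.211). At 12 h the omission of Ctr 12 h replicate 2 gave -0.79, which passed (adjusted p = 0.0332).

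Hsd11b1, which in brain works mainly in the direction that makes active hormone, was the least abundant of the 10 per length, at 2.93 RPKM in controls and 3.43 RPKM after SE. It lies on chromosome 1 (192903918 to 192946489, minus strand). Its 9 control libraries spanned 10.6 to 22 CPM (median 14.3) and its 15 SE libraries 10.4 to 25.5 CPM (median 15.1), with overlap at every time. It was called at no time, the values being 0.06, -0.25, 0.31, 0.53 and 0.35 in time order. The widest gap was at 36 h, with 25.5, 24.4 and 15.1 CPM after SE against 15.3, 15 and 14.3 CPM in controls. SE 36 h replicate 3, the low library, was 1 of the 6 with ganglion RNA, and without those the value was 0.75 (adjusted p = 0.0142), which passed.

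Fkbp5 was the only gene of the 10 with a higher mean in every SE group than in any control group. It encodes a co-chaperone that lowers the receptor's affinity for hormone and so closes a short feedback loop. The gene spans 28618058 to 28737521 of chromosome 17 (minus strand). Its levels in controls were 97.0, 70.7 and 91.7 CPM at 12 h, 69.9, 89.1 and 84.1 CPM at 36 h and 45.2, 85.8 and 70.1 CPM at 72 h. After SE they were 161, 142 and 74.5 CPM at 6 h, 157, 147 and 158 CPM at 12 h, 137, 143 and 111 CPM at 24 h, 134, 103 and 111 CPM at 36 h and 164, 96.3 and 84.7 CPM at 72 h. Of the 15 SE libraries, 12 were above all 9 controls, the exceptions being SE 6 h replicate 3 and SE 72 h replicates 2 and 3. The log2FC was 0.83 ± 0.24 at 12 h (1.78-fold higher, adjusted p = 0.011), 0.76 ± 0.20 at 24 h (0.00351), 0.72 ± 0.20 at 6 h (0.00618) and 0.83 ± 0.25 at 72 h (0.0192). At 36 h, where the groups did not overlap (as for 51.9% of all genes), it was 0.52 (0.116). The SE effect at 72 h minus that at 12 h was -0.01, with a 95% interval of -0.69 to 0.68. In the order of means SE 12 h (154 CPM) stood apart from SE 24 h (130 CPM), as for 23.5% of all genes, and all other neighbours overlapped.

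The Fkbp5 call at 12 h held under every omission of 1 library, as did that at 24 h, which was lost against the mean of Ctr 12 h and Ctr 36 h (0.64). That at 6 h was lost without SE 6 h replicate 1 (0.50), SE 6 h replicate 2 (0.62) or Ctr 72 h replicate 1 (0.62), and with Ctr 12 h alone as control (0.54), and was 1.04 without the ganglion libraries. The call at 72 h was lost without SE 72 h replicate 1 (0.49), without Ctr 72 h replicate 1 (0.56) and without the ganglion libraries (0.60, adjusted p = 0.131), which left 1 SE 72 h library. It was also lost with the label range as a factor (0.83, 0.0913).

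An exact palindromic response element, the 6-base site AGAACA followed by 3 bases of any kind and by TGTTCT, was searched in the 10 genes with the 10000 bases before each. It was found in Fkbp5 and in Sgk1 and in none of the other 8, and in 316 of 21770 protein-coding genes (1.45%; 6.63% of the 2910 with the longest windows, a class that holds both of these). Both matches of Fkbp5 lay in introns, at chr17:28639295-28639309 and chr17:28661393-28661407 of GRCm39, 98212 and 76114 bases downstream of the start of the gene. The match of Sgk1 lay at chr10:21869600-21869614 on the plus strand, in an intron, 111517 bases downstream of the start of the gene. They are shown with 20 bases on each side, read on the strand of the gene, with the 6-base sites in capitals, because these genes rose after SE and carry the element letter for letter. A match describes the sequence and not binding.
Fkbp5, first: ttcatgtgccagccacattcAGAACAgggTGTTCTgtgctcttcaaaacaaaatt
Fkbp5, second: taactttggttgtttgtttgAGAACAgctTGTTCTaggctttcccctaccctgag
Sgk1: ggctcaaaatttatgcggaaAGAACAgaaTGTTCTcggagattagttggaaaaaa

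In 32851 RefSeq promoters (GRCm38.p6, 250 bases before to 50 after a start), the same element occurred in 3 (0.00913%), 1 of them a promoter of Sgk1, with the element 189 bases before the start site. Its flanking letters are those of the Sgk1 match shown above, so it is the same site, counted from another start. Of the 10 genes 8 were matched to that table. The 6-base site alone, AGAACA or TGTTCT, stood in 19% of all promoters and in those of 2 of the 8, Tsc22d3 and Sgk1.

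Tsc22d3, or GILZ is a leucine zipper protein that carries part of the anti-inflammatory action of glucocorticoids, and it fell at 24 and 36 h. The gene is on chromosome X (139440091 to 139501408, minus strand). In controls it stood at 129, 123 and 89.6 CPM at 12 h, 96.5, 149 and 125 CPM at 36 h and 95.2, 196 and 176 CPM at 72 h. At SE 6 h it was 138, 120 and 77.9 CPM and at SE 12 h 78.5, 86.3 and 131 CPM, both overlapping the controls. It then stood at 27.3, 45.8 and 26.7 CPM at SE 24 h and at 41.6, 26.8 and 62.8 CPM at SE 36 h, below each of the 9 controls. At SE 72 h the libraries were far apart, at 152, 62.6 and 40.3 CPM. The log2FC was -0.20 at 6 h and -0.20 at 12 h (adjusted p = 0.656 and 0.716), -1.94 ± 0.32 at 24 h (3.85-fold lower, 0.000227) and -1.51 ± 0.39 at 36 h (2.85-fold lower, 0.00606). From SE 12 h to SE 24 h it fell by 1.57 ± 0.39 (adjusted p = 0.019), past the threshold of 1 used between SE times, which 3.18% of all genes passed (1.72% as lower).

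The calls at 24 and 36 h held under every omission of 1 library and in every other setting run. The drop from 12 to 24 h was lost without SE 12 h replicate 3 (-1.31), SE 24 h replicate 1 (-1.45) or SE 24 h replicate 3 (-1.43). At 72 h the value was -0.85 (adjusted p = 0.112), and without SE 72 h replicate 1, whose ganglion gene sum was 872 CPM, it was -1.56 (0.00489). The difference between the SE effects at 36 and 12 h, -1.31, did not pass (0.181).

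Zbtb16 encodes a zinc finger repressor of transcription. The gene lies on chromosome 9 (48563141 to 48748664, minus strand). It was 145, 173 and 154 CPM at SE 6 h, above all 9 controls, which ran from 51.7 to 118 CPM with a median of 94.7. At SE 12 h it was 102, 63.6 and 168 CPM and at SE 24 h 98.0, 97.5 and 123 CPM, overlapping the controls. Lower values followed at SE 36 h (67.0, 52.1 and 68.0 CPM) against 104, 118 and 103 CPM in Ctr 36 h, with no overlap (as for 51.9% of all genes). At 72 h both groups were low, with 61.1, 61.1 and 68.6 CPM after SE and 57.9, 63.3 and 51.7 CPM in controls. The log2FC was 0.94 ± 0.18 at 6 h (1.92-fold higher, adjusted p = 0.000322) and -0.80 ± 0.23 at 36 h (0.0105), and did not pass at 12, 24 or 72 h (0.32, 0.37 and 0.14). The difference between the SE effects at 36 and 12 h was -1.12 (adjusted p = 0.0542).

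Zbtb16 was also the only one of the 10 to differ between control groups, at -0.92 ± 0.23 from Ctr 36 h to Ctr 72 h (adjusted p = 0.038), where 1.97% of all genes were called. From Ctr 12 h to Ctr 36 h edgeR called none of the 10 (0% of all genes), with 1 at an unadjusted p under 0.05 (Nr3c1), and from Ctr 12 h to Ctr 72 h none (0.931% of all genes), with 1 at such a p (Zbtb16). DESeq2 and limma-voom called 0 of the 10 in both. The 72 h control call held in 1 of 6 omissions and in 8 of 13 other settings. The call at 36 h was lost without SE 36 h replicate 2 (-0.69, adjusted p = 0.0548), and that at 6 h held under all 12 omissions.

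Sgk1, a kinase that acts on ion channels and transporters and is a classic early target of both receptors, was high at 6 to 24 h. It spans 21758083 to 21875802 of chromosome 10 (plus strand). The 9 controls ran from 97.2 to 182 CPM (median 135). SE libraries stood at 198, 218 and 317 CPM at 6 h, 206, 144 and 288 CPM at 12 h and 189, 205 and 426 CPM at 24 h, so that all 6 at 6 and 24 h were above every control. At 36 h (151, 108 and 151 CPM) and 72 h (180, 153 and 145 CPM) they lay among the controls. The log2FC was 0.83 ± 0.23 at 6 h (adjusted p = 0.00593) and 0.99 ± 0.23 at 24 h (1.99-fold higher, 0.00137), and 0.66 ± 0.29 at 12 h (0.0763). At 36 and 72 h it was 0.03 and 0.14. At SE 36 h it was 2-fold lower than at SE 24 h, without passing the test (adjusted p = 0.094), where 0.529% of all genes and none of the 10 were called by edgeR, 4 of the 10 having an unadjusted p under 0.05. DESeq2 called 1 of them, Errfi1, and limma-voom 0. SE 24 h replicate 3 and SE 6 h replicate 3 were the highest of their groups, and without them the values were 0.52 (0.0775) and 0.60 (0.081), so each of these calls was lost with 1 library. Without the ganglion libraries the value at 6 h was 0.57 (0.035), under the threshold. At 24 h the call was lost with the label range as a factor (0.82, 0.0799).

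Errfi1 showed the largest change among the 10. It encodes a cytoplasmic inhibitor of the epidermal growth factor receptor and is induced by growth factors and stress as well as by glucocorticoids. The gene lies on chromosome 4 (150938376 to 150955402, plus strand). Controls were 45.7, 34.7 and 49.1 CPM at 12 h, 52.1, 62.6 and 64.7 CPM at 36 h and 49.0, 45.5 and 66.4 CPM at 72 h. SE libraries were 123, 212 and 480 CPM at 6 h, 175, 131 and 342 CPM at 12 h and 105, 97.2 and 308 CPM at 24 h, all 9 above every control. They were 54.2, 57.5 and 57.8 CPM at 36 h and 40.1, 40.1 and 44.5 CPM at 72 h, the latter all below the 3 controls of that time (32.8% of all genes had groups apart at 72 h). The log2FC was 2.40 ± 0.35 at 6 h (5.29-fold higher, adjusted p = 8.56e-06), 2.32 ± 0.43 at 12 h (4.98-fold, 0.000444) and 1.73 ± 0.35 at 24 h (3.31-fold, 0.000272). At 36 and 72 h it was -0.08 (0.912) and -0.35 (0.604).

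The SE effect on Errfi1 differed between times, by -2.40 ± 0.61 from 12 to 36 h (adjusted p = 0.0352; 3.38% of all genes) and by -2.66 ± 0.62 from 12 to 72 h (0.00527; 18.6% of all genes, 6.31% as lower). By edgeR no other gene of the 10 was called in these or in the comparison of 72 with 36 h (4.81% of all genes, 3.69% higher and 1.12% lower, with 2 of the 10 at an unadjusted p under 0.05 and 0 called by DESeq2 or limma-voom), and the comparisons share groups. From 12 to 36 h DESeq2 called Zbtb16 as well, and without the ganglion libraries Tsc22d3, Zbtb16 and Hsd11b1 were called too, as were Tsc22d3 and Pdk4 from 12 to 72 h. The calls of SE against control at 6, 12 and 24 h held under every omission of 1 library, and that at 24 h was lost with the label range as a factor (1.20, adjusted p = 0.0652). The difference from 12 to 36 h held in 3 of 13 omissions, with values from -2.65 to -1.91, and that from 12 to 72 h held in 12 of 12. With the label range as a factor neither passed (-2.16 and -2.18, adjusted p = 0.0536 and 0.0765). Without the ganglion libraries, which removed SE 6 h replicate 3 (480 CPM), the value at 6 h was 1.61 (adjusted p = 6.7e-07). SE 24 h replicate 3, at 48.0 CPM of ganglion genes, was the highest at its time, and without any 1 library the value at 24 h was 0.97 to 2.01.

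The Errfi1 promoter held none of the glucocorticoid 6-base sites but an 8-base cAMP response element, TGACGTCA, present in 1.79% of all promoters and in no other of the 8 matched. It lay 51 bases before the start site (chr4:150855019-150855026 of GRCm38.p6, plus strand, in the RefSeq promoter table) and is shown with 20 bases on each side, the element in capitals, as the member with the largest change.
Errfi1 promoter: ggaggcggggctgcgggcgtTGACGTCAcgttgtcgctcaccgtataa

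Ddit4, also called REDD1, an inhibitor of the growth kinase mTOR that is induced by stress and lack of energy, was lower at 12 h. It lies on chromosome 10 (59785491 to 59788492, minus strand). Levels were 33.5, 39.3 and 56.9 CPM at SE 12 h against 61.7, 65.3 and 79.3 CPM in Ctr 12 h, and 46.5, 43.7 and 45.9 CPM at SE 36 h against 52.2, 80.4 and 67.8 CPM in Ctr 36 h. The groups did not overlap at either time, as held in either direction for 47.7% and 51.9% of all genes. At SE 6 h (54.1, 72.4 and 53.5 CPM) and SE 24 h (86.8, 87.4 and 63.1 CPM) it lay among the controls. At 72 h it was 88.8, 46.4 and 45.1 CPM against 89.0, 77.1 and 123 CPM. The log2FC was -0.68 ± 0.24 at 12 h (adjusted p = 0.033), -0.56 at 36 h (0.0897) and -0.65 at 72 h (0.0535), and -0.34 and 0.06 at 6 and 24 h. From SE 12 h to SE 24 h, with no overlap (as for 23.5% of all genes), it was 0.88 (0.0302), under the threshold of 1. The call at 12 h was near the threshold: it held in 6 of 13 other settings and was lost without Ctr 12 h replicate 2 (-0.68) or 3 (-0.56) or SE 12 h replicate 1 (-0.52) or 2 (-0.62), and without the ganglion libraries (-0.53, adjusted p = 0.0703). At 72 h the value passed without SE 72 h replicate 1 (-1.06, adjusted p = 0.00185) and without Ctr 72 h replicate 2 (-0.81, 0.0401).

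Pdk4, a kinase that switches off pyruvate dehydrogenase and so spares glucose, had its lowest mean at SE 24 h. It is on chromosome 6 (5483097 to 5496339, minus strand). Controls ran from 12.5 to 27.4 CPM (median 16). SE libraries were at 24.7, 26.7 and 26.1 CPM at 6 h and at 20.4, 20.3 and 32.6 CPM at 12 h, then at 9.88, 10.4 and 9.95 CPM at 24 h, below all 9 controls. They were 15.5, 11.4 and 13.6 CPM at 36 h and 30.5, 22.4 and 16.3 CPM at 72 h. The log2FC was 0.58 at 6 h (adjusted p = 0.0133) and 0.59 at 12 h (0.0399), both under 0.66 and so not called, and -0.78 ± 0.19 at 24 h (1.71-fold lower, 0.00322). From SE 12 h to SE 24 h it fell by 1.26 ± 0.22 (2.40-fold, 0.00237). The values at 36 and 72 h were -0.27 and 0.23, and the difference from SE 36 h to SE 72 h, 0.78 (0.0299), was under the threshold of 1, where 4.13% of all genes (3.08% higher) and none of the 10 were called by edgeR, DESeq2 or limma-voom, 2 of the 10 having an unadjusted p under 0.05. Both calls at 24 h held under every omission of 1 library. At 12 h Pdk4 was called as higher without the ganglion libraries (0.69, 0.0168), with the label range as a factor (0.74, 0.0241) and in 3 of 7 omissions, namely of Ctr 12 h replicate 1 (0.77) and SE 12 h replicates 1 (0.71) and 2 (0.70), and at 6 h against Ctr 12 h alone (0.69, 0.0253). From SE 6 h to SE 12 h edgeR, DESeq2 and limma-voom called 0 of the 10 (1.34% of all genes by edgeR, 0.446% higher and 0.898% lower), with 1 at an unadjusted p under 0.05 (Zbtb16).

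A list of 30 other genes induced by glucocorticoids, all of which were tested, had its largest share of increases at SE 6 h. Like the lists below, it was chosen with earlier results of these data known, so its counts only describe these genes. At SE 6 h 18 were higher and none lower, with a median log2FC of 1.01. At 12 h 12 were higher and 3 lower (median 0.64), at SE 24 h 14 and 7 (0.71), at 36 h 8 and 6 (-0.10) and at 72 h 10 and 2 (0.50). Over all genes the shares higher and lower were 15.8% and 6.21% at 6 h, 13.9% and 11.4% at 12 h, 14.9% and 9.21% at 24 h, 12.7% and 8.91% at 36 h and 15.2% and 4.21% at 72 h. The largest increases were in Lcn2, an iron-binding acute phase protein (54.3 ± 22.8 CPM at SE 12 h against 0.382 ± 0.307; SD, n = 3), Cdkn1a, a cell cycle inhibitor that p53 also induces (217 ± 70.5 against 10.8 ± 4.18 CPM) and Mt2, a metal-binding protein (70.1 ± 57.6 against 6.02 ± 1.38 CPM). Cdkn1a gave a log2FC of 4.36 ± 0.42 (adjusted p = 1.01e-06). Angptl4, an inhibitor of lipoprotein lipase, was among the 3 largest at SE 6 h (2.97 ± 0.49, 3.65e-05), and Plin4, a lipid droplet protein, and Cebpd, a transcription factor, at 72 h (3.33 ± 0.81 and 2.69 ± 0.30, 0.00456 and 1.79e-06).

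**Figure D3:**
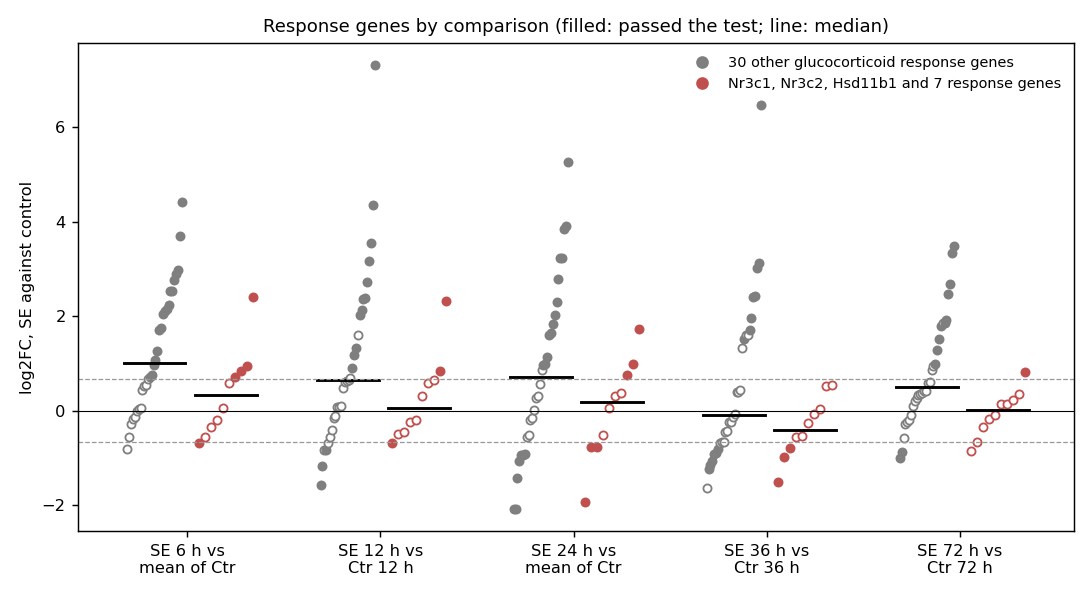
Log2FC of SE against control at 5 times for 30 other glucocorticoid response genes (grey) and for the 10 genes described here (red), sorted within each time; filled points passed the test, lines are medians and dashed lines mark 0.66. The grey median lies above 0 at every time but 36 h, where it is -0.10.

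From 12 h on some members of that list were called lower, at each time fewer than were called higher. At SE 24 h the largest decreases were in Dio2, which activates thyroid hormone (17.3 ± 0.301 CPM, n = 3, against 74.9 ± 14.4 CPM, n = 9, log2FC -2.09 ± 0.25, adjusted p = 4.83e-06), Sult1a1, a sulfotransferase (-2.08 ± 0.53, 0.00623), and Gjb6, a gap junction protein (-1.43 ± 0.26, 0.000339). At 12 h they were Sult1a1 (-1.58), Glul, the glutamine synthetase (791 ± 221 against 1770 ± 112 CPM, -1.17 ± 0.17, 2.58e-05) and Sesn1 (-0.83). At 36 h they were Klf15, a transcription factor (-1.25 ± 0.28, 0.00188), Dio2 (-1.15) and Fam107a (-1.06). At 72 h Arl4d (-1) and Per1 (-0.88) were lower. The sum of 8 astrocyte markers was 4890 to 6000 CPM in controls, 5520 to 7310 CPM at SE 24 h and 12900 to 14400 CPM at SE 72 h. Of the 8, 4 were called lower and 2 higher at 24 h (median -0.66), and 4 lower and 3 higher at 36 h (median -0.23), and their part in these values was not tested.

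Of 10 chaperones of the receptor, 2 were called at 6 h, beside 22% of all genes, and 1 at 12 h, beside 25.2%. Of these, Hspa8 was higher at 6 and 12 h (0.82 ± 0.12 and 0.76 ± 0.15, adjusted p = 1.52e-05 and 0.000482) and Hsp90aa1, which holds the receptor ready for hormone, at 6 h (0.67 ± 0.09, 9.56e-06), and none was called at 24, 36 or 72 h. Among 12 coregulators, Nrip1, a corepressor of nuclear receptors, was lower at 12, 24 and 36 h (-0.75, -0.87 and -0.87), and no coregulator was called at 72 h. The median over the chaperones was 0.08 at 6 h and over the coregulators -0.04.

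Among 6 genes of steroid metabolism and transport, 4 were tested and Hsd11b2 and Serpina6 were not. H6pd, which supplies the cofactor of the Hsd11b1 enzyme, was higher at all 5 times, with 17.8 ± 2.65 CPM at SE 6 h (n = 3) against 7.29 ± 1.86 CPM in controls (n = 9) and log2FC values of 1.29, 1.04, 1.1, 1.01 and 1.37 in time order. Abcb1a, an efflux pump of the blood-brain barrier that carries glucocorticoids, was lower at 6, 12, 24 and 36 h, at 16.7 ± 1.47 against 46.1 ± 2.87 CPM at 12 h (-1.46 ± 0.23, adjusted p = 7.92e-05). Srd5a1, a steroid reductase, was lower at 12 and 24 h (-1.25 and -0.83), and Akr1c14, which acts after it, at 6, 12, 24 and 72 h, on at most 68 counts in any library.

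Of the 4 other steroid receptors, Pgr (progesterone) was lower at 6 to 36 h, at 13.1 ± 3.38 against 28.6 ± 3.70 CPM at 12 h (-1.10 ± 0.23, adjusted p = 0.000918). Esr2 was called higher at 6 and 24 h, with 5 to 20 and 0 to 40 counts per library against at most 16 in controls. None of the 4 was called at 72 h.

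The corticotropin-releasing hormone gene Crh, which in the hypothalamus starts the release of glucocorticoids and is also made by hippocampal interneurons, was called higher at 6 to 36 h. It was 8.39, 16.2 and 15.5 CPM at SE 6 h, 4.87, 13.3 and 15.7 CPM at SE 12 h, 2.76, 3.61 and 3.22 CPM at SE 24 h and 13.8, 8.59 and 1.77 CPM at SE 36 h. Controls at 12 and 36 h were at most 1.31 CPM, and those at 72 h were 2.7, 0 and 3.75 CPM beside 1.01, 1.05 and 0.877 CPM after SE. The log2FC was 4.31 ± 0.38 at 6 h (adjusted p = 8.42e-09), 3.39 ± 0.41 at 12 h (5.57e-06), 2.30 ± 0.40 at 24 h (6.56e-05) and 3.18 ± 0.44 at 36 h (1.51e-05), and 1.14 at 72 h (0.296), where the group means run the other way. All SE 24 h libraries lay within the range of the 9 controls (0 to 3.75 CPM), so the call at 24 h rests on the fit. The fitted values at 6 and 24 h also depend on Ctr 72 h, which is part of their control. Mean levels there were 13.4 CPM at SE 6 h and 3.2 CPM at SE 24 h against 1.28 CPM in controls. Crhbp, the binding protein of the hormone, was higher at all 5 times (134 ± 22.7 against 14.6 ± 0.867 CPM at 36 h, 3.20 ± 0.29, 2.36e-07). The receptor Crhr1 was called higher at 12 h (1.19, 0.00518) and lower at 24 and 36 h (-1.08 and -1.55, 0.00455 and 0.0011). Avpr1a, a vasopressin receptor, was higher at 6, 12 and 24 h on at most 48 counts in any library. Ucn, a related peptide, had 17 counts over the SE 36 h libraries and 0 over Ctr 36 h, at least 5.86-fold higher against 3 counts over the group.

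**Figure D4:**
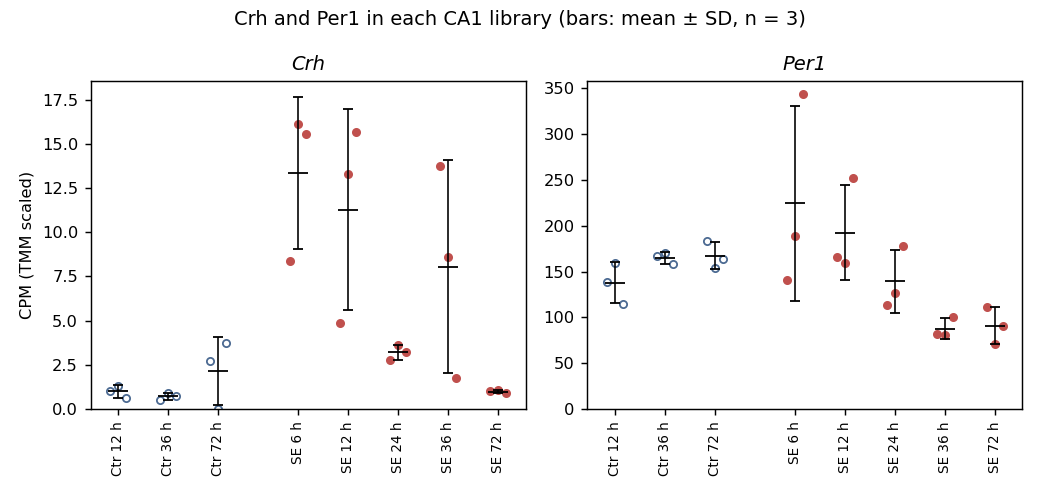
Level of Crh and of Per1 in every library, in CPM on linear axes from 0; open circles are controls, filled circles SE, and black bars the mean and SD of 3 libraries. Crh is 8.39 to 16.2 CPM at SE 6 h and at most 3.75 CPM in controls, and Per1 is lowest at SE 36 h and SE 72 h.

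Of the 6 genes tested among the 8 stress peptides and receptors (Avpr1b and Mc2r were not), 4, 5, 4, 3 and 1 were higher and 0, 0, 1, 1 and 0 lower in time order, beside 15.8%, 13.9%, 14.9%, 12.7% and 15.2% of all genes higher and 6.21%, 11.4%, 9.21%, 8.91% and 4.21% lower. Their median log2FC was 3.09, 3.13, 2.53, 1.89 and 0.40, the value at 36 h being 1.57 with Ucn at its bound. Per1, a clock gene that glucocorticoids induce, was 141, 189 and 344 CPM at SE 6 h and 165, 160 and 252 CPM at SE 12 h, and its controls ran from 115 to 183 CPM. It was lower at SE 36 h (81.6, 80.3 and 101 CPM) and SE 72 h (112, 70.4 and 91.1 CPM), below every control. The hour of the injections is not stated, so equal clock times across groups cannot be assumed.

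Across the 24 libraries the 10 genes were related to different degrees. The likeness measure was Pearson's r of log2 CPM among 13750 genes with a mean of at least 1, and it takes in the SE effect, depth and shared tissue, so that no p is given. Sgk1 was most like Errfi1 (0.843), Tiparp (0.843) and Eif1 (0.833). Fkbp5 was most like Mrpl17 (0.834), Garre1 (0.813) and Lamc1 (0.812), and Tsc22d3 like Abhd3 (0.875), Sema3c (0.848) and Prxl2a (0.847). Nr3c1 was most like Gm37459 (0.870), Cyld (0.867) and Pcdhb13 (0.844), and Nr3c2 like Nalf1 (0.865), Nsmf (0.862) and Slc9a2 (0.861). Among the 10, the most opposed pair was Fkbp5 and Nr3c1 (-0.78).

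**Figure D5:**
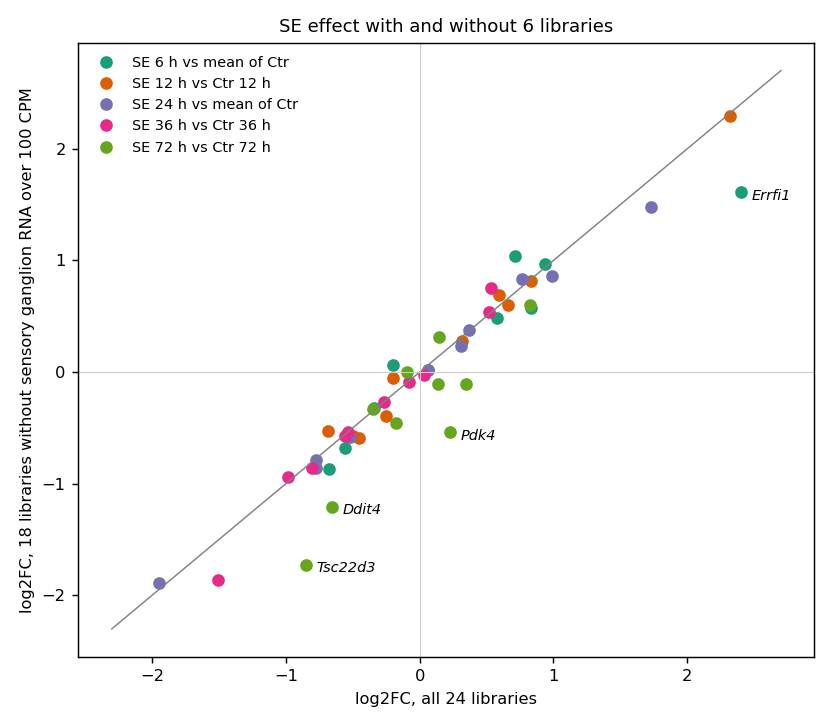
Log2FC of SE against control for the 10 genes at 5 times with all 24 libraries (x axis) and without the 6 libraries with over 100 CPM of sensory ganglion genes (y axis); the line marks equal values and names mark differences over 0.5. Errfi1 at 6 h is smaller without them (1.61 against 2.40), and Tsc22d3, Ddit4 and Pdk4 at 72 h are lower.

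The 72 h comparison rested most on these libraries, since without them 1 SE 72 h and 2 Ctr 72 h libraries were left. Tsc22d3 was then -1.73 (adjusted p = 0.0157) and Ddit4 -1.21 (0.0172), both called, Pdk4 was -0.54 and Fkbp5 was no longer called.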

How the data were processed

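CA1 RNA-seq libraries (24, in 8 groups of 3) were used. The deposited values are raw read counts per gene: per the labels and the methods, the authors trimmed reads with Trim Galore 0.6.6, aligned them to GRCm39 with STAR 2.7.8a and GENCODE M26, handled alignments with SAMtools 1.10 and counted with HTSeq 0.13.5 without strand. The 10 genes and all lists were chosen with earlier results of these data known.

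In R 4.3.3, genes were filtered with filterByExpr (18153 tested), scaled by TMM, and fitted over all 24 libraries with 1 RUVr factor of unwanted variation by edgeR 4.0.16 (quasi-likelihood). That factor was 0.797 in Ctr 72 h replicate 2, the library with the most ganglion RNA, and -0.383 and -0.374 in Ctr 72 h replicates 1 and 3. Elsewhere it lay between -0.102 and 0.136, so it mainly took up spread within Ctr 72 h. It bears on both the fitted log2FC and the p-values wherever that group enters. This includes SE 6 h and SE 24 h, since Ctr 72 h is part of their control. Without the factor, the median log2FC of all genes at 72 h was 0.009 rather than 0.097. It was 0.024 rather than 0.057 at SE 6 h, and -0.004 rather than 0.039 at SE 24 h. At 12 and 36 h it was 0.009 and 0.006, rather than 0.007 and 0.003. A call needed an adjusted p of at most 0.05 and a log2FC of at least 0.66 in size, or 1 between SE times. CPM used TMM-scaled totals, and RPKM the exon length in GENCODE M39, to which 18552 of 18647 identifiers matched (95 did not). Beside the 10 genes, Crh and Per1, the text names at most the 3 largest calls in each direction of each list and comparison, and the 3 genes most like each of 5 of the 10 by correlation; Crhbp at 6 and 12 h and Crhr1 at 12 h fall outside this rule and were chosen after their values were seen. On simulated counts for SE 12 h against Ctr 12 h (17737 genes), 170 of 200 genes changed by 1.5 on the log2 scale were recovered (85%), with 7 false calls. Most calls among the 10 genes were smaller than that, and the simulation held no ganglion RNA. It therefore does not show how such smaller calls would be recovered. Alternatives covered the scaling, filter, thresholds, RUVr, controls, label range, replicate block, limma-voom (limma 3.58.1), DESeq2 1.42.0 and the omission of libraries; the omission of the 6 ganglion libraries and the label range were added after the data were seen. No libraries were identical. Library totals limit precision most in Ctr 72 h (from 2663936 counts). Results for a few list members were left out of the text.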

Additional observations from a re-analysis of the deposited data

Results flagged for a closer look

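In the edgeR fit with all libraries, Errfi1 was the gene of the 10 whose SE effect differed between times. The effect at 36 h was lower than that at 12 h by a log2 difference of -2.4 (adjusted p = 0.0352, edgeR), and the effect at 72 h lower than that at 12 h by -2.66 (adjusted p = 0.00527), each by a test of the difference itself. These differences were called for 3.38% and 18.6% of all genes. All 3 SE libraries were above their controls at 12 h, and at 72 h all 3 were below. Groups were apart in either direction for 47.7% of all genes at 12 h and 32.8% at 72 h. The SE effect at 72 h itself was -0.35 and was not called (adjusted p = 0.604, edgeR), so a decrease was not shown. Over omissions of 1 library, the difference from 12 to 36 h held in 3 of 13 and that from 12 to 72 h in 12 of 12. With the label range as a factor neither passed (adjusted p = 0.0536 and 0.0765, edgeR).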

How the results depend on the processing

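Of the values that changed sign under another setting (24, of which 13 under the omission of 1 library), none was a call, and the largest had a log2FC of 0.349 in size. Over omissions of 1 library, the values that changed sign ranged at 12 h from -0.37 to 0.06 for Hsd11b1 and from -0.11 to 0.6 for Zbtb16; at 36 h from -0.15 to 0.17 for Sgk1; at 72 h from -0.24 to 0.07 for Nr3c1, -0.42 to 0 for Nr3c2, -0.04 to 0.43 for Pdk4 and -0.02 to 0.61 for Hsd11b1; at 6 h from -0.38 to 0 for Tsc22d3; and at 24 h from -0.02 to 0.2 for Ddit4. With the label range as a factor Sgk1 was -0.04 at 36 h, and Nr3c2 0.35 and Pdk4 -0.28 at 72 h. Without the 6 ganglion libraries Sgk1 was -0.03 at 36 h, Sgk1 -0.11, Pdk4 -0.54 and Hsd11b1 -0.11 at 72 h, and Tsc22d3 0.06 at 6 h. With library size only Errfi1 was 0.04 at 36 h, with Ctr 12 h alone Hsd11b1 was -0.07 at 6 h, and with Ctr 72 h alone Ddit4 was -0.27 at 24 h. The cause was not tested.

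The number of the 10 genes called was 3 at 12 h (5 with no fold threshold, 1 at a threshold of 1, 2 to 4 over omissions of 1 library), 3 at 36 h (1 at a threshold of 1, omissions 1 to 3), 5 at 6 h (1 at a threshold of 1, omissions 3 to 5) and 6 at 24 h (2 at a threshold of 1, omissions 4 to 6). At 72 h it was 1, against 0 at a threshold of 1, with the label range or with the compared groups only, 2 with DESeq2 size factors, DESeq2 or without the ganglion libraries, and 0 to 2 over omissions. From SE 12 to 24 h it was 2 (0 with the compared groups only, omissions 1 to 2), from SE 24 to 36 h 0 (1, Errfi1, with the block, the compared groups only, DESeq2 or without the ganglion libraries; omissions 0 to 1) and from SE 36 to 72 h 0 (1, Pdk4, with no threshold or at 0.66; omissions 0 to 1). From Ctr 36 to 72 h it was 1 (0 at a threshold of 1, without RUVr, with the label range, limma-voom or without the ganglion libraries, 2 with the compared groups only; omissions 0 to 1). For the SE effect at 36 against 12 h it was 1 (2 with 10 counts in every library, the block or DESeq2, 0 with the label range, 4 without the ganglion libraries; omissions 0 to 2), at 72 against 12 h 1 (0 with the label range, 3 without the ganglion libraries) and at 72 against 36 h 0 (1 with the compared groups only).

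Same-numbered SE and Ctr libraries correlated at 0.082, 0.181 and -0.002 at 12 h and at 0.157, 0.031 and 0.172 at 36 h. At 72 h the values were -0.201, 0.063 and 0.162. Between different numbers the lowest and highest values were -0.139 and 0.067 (12 h), -0.185 and 0.08 (36 h), -0.299 and 0.252 (72 h). With 3 libraries per group, these values cannot settle whether the replicate numbers pair the samples. With the replicate block Nr3c2 at 6 h was no longer called (-0.67, adjusted p = 0.0607). Scaling by library size only moved the median log2FC of all genes at 36 h to 0.127 and the calls to 2782 higher and 1197 lower, from 2308 and 1618.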
